A study of Mus musculus with 24 samples.

Results

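The genes examined here are the protein endocytosis machinery of the kidney proximal tubule, taken as Lrp2, Cubn, Amn, Dab2 and Clcn5 and matched by gene name. All 5 had a row of their own among the 14785 genes of the deposited expression table. Expression was measured by bulk RNA sequencing in kidneys of male C57/BL6 mice labelled 8 weeks old, in 24 animals that formed 6 groups of 4. The groups were sham surgery (sham) and ligation of the ureter for 2 days (UUO2) or 7 days (UUO7). In the other 3 groups the ureter was reimplanted after 7 days, a surgical reversal, and the animals recovered over 1 week in R1W, over 2 weeks in R2W and over 4 weeks in R4W. Every group outside sham and UUO2 therefore carried the same 7 days of unilateral ureter obstruction (UUO), and no group was kept obstructed beyond 7 days. The labels give kidney as the tissue and the series title calls it cortical. They do not give the time between sham surgery and collection, and the 4 animals of each group were chosen from a larger number by a rule that is not given in the sources used here.

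The proximal tubule recovers filtered albumin, vitamin-binding proteins and other small proteins from the urine by receptor-mediated endocytosis at its brush border. Megalin, encoded by Lrp2, is a very large receptor of the LDL receptor family. Cubilin, encoded by Cubn, has no membrane-spanning part and reaches the surface bound to amnionless, encoded by Amn. Dab2 is an adaptor that links the megalin tail to clathrin coats. Clcn5 encodes ClC-5, a chloride/proton exchanger of the endosomes that receive the cargo. Inherited loss of megalin, cubilin, amnionless or ClC-5 in humans causes loss of filtered protein into the urine, for ClC-5 as Dent disease.

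All 5 are protein-coding genes, and their coordinates in the deposited table equal those of GENCODE M21 on GRCm38. Lrp2 lies at chr2:69424340-69586065 on the minus strand and its longest transcript has 15460 bases. Cubn lies on the same chromosome at chr2:13276338-13491813, minus strand, with a longest transcript of 11262 bases. Amn is a small gene at chr12:111271095-111276426, plus strand, with a longest transcript of 1701 bases. Dab2 lies at chr15:6299788-6440712 on the plus strand and has 14 annotated transcripts, the longest of 4663 bases. Clcn5 lies at chrX:7153810-7319358, minus strand, with a longest transcript of 8390 bases. The gene values below add over all transcripts of a gene and do not separate isoforms.

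The promoters of the receptor genes are shown because the levels of Lrp2 and Cubn moved together through the series while Amn, whose protein carries cubilin, moved differently. Sequences are from RefSeq on GRCm38.p6, with 250 bases before the transcription start in lower case and the 50 bases from the start on in capitals, read along the gene. The Lrp2 window is chr2:69585980-69586279 on the minus strand, the Cubn window is chr2:13491827-13492126 on the minus strand, and the Amn window is chr12:111270846-111271145 on the plus strand.
Lrp2: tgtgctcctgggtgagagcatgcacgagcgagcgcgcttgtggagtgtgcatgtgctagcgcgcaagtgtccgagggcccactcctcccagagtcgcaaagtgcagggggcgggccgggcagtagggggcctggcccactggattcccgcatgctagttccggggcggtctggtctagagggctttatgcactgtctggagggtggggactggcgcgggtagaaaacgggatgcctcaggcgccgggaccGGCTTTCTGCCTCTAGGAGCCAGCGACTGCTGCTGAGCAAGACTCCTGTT
Cubn: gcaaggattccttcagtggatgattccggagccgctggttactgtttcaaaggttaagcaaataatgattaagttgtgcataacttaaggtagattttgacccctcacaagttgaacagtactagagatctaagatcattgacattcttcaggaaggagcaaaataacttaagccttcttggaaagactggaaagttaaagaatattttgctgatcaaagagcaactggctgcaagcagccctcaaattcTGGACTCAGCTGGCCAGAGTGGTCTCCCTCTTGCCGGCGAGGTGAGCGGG
Amn: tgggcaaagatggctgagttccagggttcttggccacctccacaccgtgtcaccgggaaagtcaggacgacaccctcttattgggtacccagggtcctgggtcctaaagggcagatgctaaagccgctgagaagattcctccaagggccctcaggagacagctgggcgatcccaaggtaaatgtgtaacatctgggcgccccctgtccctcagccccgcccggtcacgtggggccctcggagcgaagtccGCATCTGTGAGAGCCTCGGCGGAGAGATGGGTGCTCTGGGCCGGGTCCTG
The Lrp2 window held 65.0% G and C with 20 CpG dinucleotides and the Amn window 62.3% with 15, against a median of 52.7% over the 32851 promoter windows of the table. The Cubn window was poorer, at 44.3% with 5 CpG dinucleotides. The pair whose levels moved together did not share base composition in these windows. The Cubn window begins at 13491827, beyond the gene end of 13491813 in GENCODE M21, so its capitals follow the RefSeq start alone. Dab2 and Clcn5 have windows for 2 starts each, which makes 7 windows for the 5 genes. Motifs were searched on both strands, among them the HNF4 motif CAAAGTCCA (in 0.47% of all promoter windows), the E-box CACGTG (7.15%) and the TATA box TATAAA (13.62%). The Lrp2 and Cubn windows held none of these letters. The Amn window held an E-box from 26 to 21 bases before the start. The TATA box letters stood in the window of the second Clcn5 start. These matches are descriptions of letters in the windows and not binding sites.

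Values are FPKM, sequenced fragments of a gene relative to its transcript length and to the library's total, a unit inferred from the values. Libraries within groups correlated with a median Pearson r of 0.978 across genes on the log2 scale, and 20 of the 24 libraries showed whole-fragment steps that imply depths of 24920000 to 35320000 fragments. All 4 UUO2 libraries lacked such steps, so their depth is unknown, and the mitochondrial ribosomal RNA mt-Rnr1 lay at 2343 to 2832 FPKM in them against 342 to 709 elsewhere. The series' design text speaks of 20 libraries sequenced together, without naming them, so a batch and UUO2 cannot be told apart in any UUO2 comparison below. The title of R4W replicate 2 says 4 weeks and its treatment label 2 weeks. It was placed by title. FPKM is a share of the library, and with the values as deposited the median gene stood 0.42 higher on the log2 scale in UUO7 than in sham, 0.09 higher at UUO2, and 0.37 higher at R1W, 0.32 at R2W, 0.30 at R4W. For part of the genes and comparisons, fold changes are therefore also given after rescaling each library by its median ratio to the mean library. Rescaling brings the median gene to within 0.02 in each of the 12 comparisons.

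The markers of the cells that carry this machinery were present and were lower in UUO7. Lrp2 and Cubn fell about as far there, and Amn, Dab2 and Clcn5 fell less, as given below. Of 18 proximal tubule markers, 18 were lower in UUO7 than in sham (limma, Benjamini-Hochberg adjusted p under 0.05 over all genes, the rule for every call below) with a median log2 fold change of -2.07, and 17 were lower in R4W with a median of -0.80. Their summed level was 47970 to 62130 FPKM over the sham libraries, 15290 to 22740 in UUO2, 11770 to 20090 in UUO7 and 27100 to 37790 in R4W. The marker Kap alone averaged 20260 FPKM of a mean sum of 27340 in R1W and 21670 of 30630 in R4W. The sum there mostly follows that gene and not the list as a whole. Markers of other cells moved in both directions, where 60.1% of all genes were called higher and 17.8% lower, and 36.5% each way after rescaling. All 9 macrophage markers with a row, summed at 55.6 to 95.7 FPKM in sham and 1161 to 1377 in UUO7, and all 9 fibroblast markers, at 35.02 to 83.9 and 677 to 855, were higher in UUO7, and both lists stayed higher in R4W with 9 of 9 called. Over all genes 54.8% were called higher and 11.6% lower in R4W, and 28.9% and 31.1% after rescaling. Of the other lists, endothelial markers had 7 of 8 higher in UUO7 than in sham, podocyte markers 6 of 7, T cell markers 7 of 7, injured tubule markers 8 of 8 and urothelial markers 3 of 7. After rescaling these counts were 6 for endothelium, 4 for podocytes, 7 for T cells, 8 for injured tubule and 2 for urothelium, and still 9 each for macrophages and fibroblasts. Thick ascending limb markers had 5 of 6 lower and 1 higher, distal convoluted tubule markers 4 lower and 2 higher of 6, principal cell markers 4 of 7 lower and intercalated cell markers 6 of 7 lower, the same direction as the proximal tubule markers. After rescaling 5, 4, 6 and 7 of these lists were lower. No marker was at 0 in all libraries of a group. The part of these cell changes in the levels below was not tested, and in bulk tissue fewer cells of a type and less RNA per cell cannot be told apart.

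**Figure D1:**
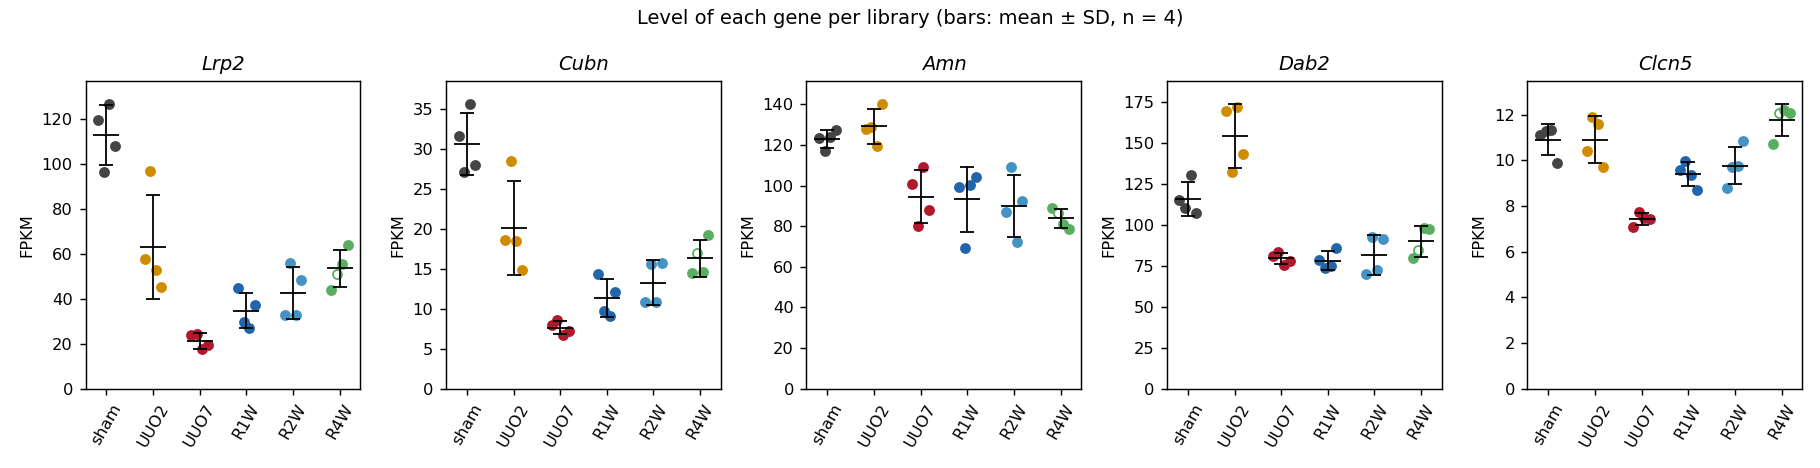
Level of each gene in FPKM (vertical axes from 0) in each library, by group. Points are libraries, bars are mean ± SD with n = 4, and the open point is R4W replicate 2; Lrp2 and Cubn were lowest in UUO7 and lay between UUO7 and sham in all recovery libraries, Dab2 was highest in UUO2 as deposited, and 3 of 4 Clcn5 libraries in R4W lay above those of sham as deposited.

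Megalin transcripts fell most. Lrp2 stood at 119.5, 96.3, 126.6 and 107.7 FPKM in sham replicates 1 to 4, which gives 112.5 ± 13.3 (SD, n = 4, as for every mean below). In UUO2 it was at 57.5, 96.5, 52.7 and 45.2 FPKM. Of those libraries 3 lay below all sham libraries, and replicate 2 lay just above the lowest sham library. At UUO7 the values were 24.0, 24.1, 17.5 and 19.3 FPKM, a mean of 21.2 ± 3.36 or 18.9% of the sham mean, with no overlap with sham or UUO2. The R1W libraries had 44.6, 29.7, 27.1 and 37.2 FPKM, the R2W libraries 32.9, 56.0, 32.7 and 48.5, and the R4W libraries 43.8, 50.9, 55.4 and 63.6. Every recovery library lay above every UUO7 library and below every sham library. The R4W mean of 53.5 ± 8.29 FPKM was 47.5% of sham as deposited and 36.5% after rescaling. In order of the means the groups ran sham, UUO2, R4W, R2W, R1W and UUO7, and every pair of neighbours in that order overlapped except R1W and UUO7.

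Cubilin followed megalin closely. Cubn stood at 31.6, 27.1, 35.6 and 27.9 FPKM in sham (30.6 ± 3.89) and at 18.6, 28.4, 18.5 and 14.8 in UUO2. Again UUO2 replicate 2 alone reached the sham range. In UUO7 it was at 7.96, 8.58, 6.73 and 7.16 FPKM (7.61 ± 0.825, 24.9% of sham). The R1W libraries then had 14.3, 9.70, 9.10 and 12.1 FPKM and the R2W libraries 10.8, 15.6, 10.9 and 15.7. The R4W libraries had 14.5, 17.0, 14.5 and 19.2 FPKM (16.3 ± 2.28, 53.3% of sham, or 40.95% after rescaling). As for Lrp2, all 12 recovery libraries fell between the UUO7 and the sham libraries. The R4W libraries were also all above those of R1W. The groups ranked in the same order as for Lrp2, again with overlap between all neighbours except R1W and UUO7.

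Amnionless, the partner that carries cubilin to the surface, changed less and stayed below sham. Amn stood at 123.4, 117.0, 123.9 and 127.6 FPKM in sham (123.0 ± 4.39) and at 128.1, 129.1, 119.3 and 140.3 in UUO2, so that these 2 groups overlapped. The UUO7 libraries were at 100.9, 80.0, 109.4 and 88.2 FPKM (94.6 ± 13.1, 76.9% of sham), all below sham. Values of 99.3, 69.3, 100.1 and 104.4 FPKM followed at R1W, of 86.9, 109.1, 72.2 and 92.2 at R2W, and of 88.9, 86.8, 81.3 and 78.9 at R4W. All recovery groups overlapped with UUO7 and none with sham. The lowest mean of the series was that of R4W, at 84.0 ± 4.66 FPKM or 68.3% of sham (52.5% after rescaling). No comparison among R4W, R2W, R1W and UUO7 was called for this gene. In order of the means the groups ran UUO2, sham, UUO7, R1W, R2W and R4W, with overlap between all neighbours except sham and UUO7.

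The adaptor Dab2 was higher at UUO2, as deposited, and lower at UUO7 than in sham. Its level was 115.0, 110.2, 130.2 and 107.4 FPKM in sham (115.7 ± 10.2) and 169.5, 132.4, 171.9 and 143.3 in UUO2 (154.3 ± 19.5). Every UUO2 library was above every sham library. In UUO7 the level was 81.1, 83.4, 75.6 and 77.7 FPKM (79.4 ± 3.49, 68.7% of sham), below all sham libraries. Through recovery it was 78.5, 73.5, 74.7 and 85.9 FPKM at R1W, then 69.7, 92.4, 72.7 and 91.5 at R2W, and 79.6, 84.4, 98.0 and 97.4 at R4W. These groups overlapped with UUO7 and with each other, and none overlapped with sham. The means ran in the order UUO2, sham, R4W, R2W, UUO7 and R1W.

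Clcn5, the endosomal exchanger, had the lowest level per transcript length of the set, and its level against sham at R4W depended on the scaling. It stood at 11.1, 11.3, 11.3 and 9.89 FPKM in sham (10.9 ± 0.680) and at 10.4, 11.9, 11.6 and 9.72 in UUO2, with overlapping groups. In UUO7 it was at 7.09, 7.73, 7.49 and 7.45 FPKM (7.44 ± 0.264, 68.3% of sham), below every library of every other group. It was then at 9.59, 9.97, 9.35 and 8.69 FPKM at R1W, at 8.81, 9.70, 9.77 and 10.8 at R2W, and at 10.7, 12.1, 12.2 and 12.1 at R4W, where 3 libraries lay above every sham library and 1 within the sham range. The R4W mean of 11.8 ± 0.698 FPKM was 108% of sham as deposited and 83.2% after rescaling, when all R4W libraries lay below all sham libraries. As deposited the means ran in the order R4W, UUO2, sham, R2W, R1W and UUO7, with overlap between all neighbours except R1W and UUO7.

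The first comparison asked what 2 days of obstruction changed. In UUO2 against sham 3 of the 5 genes were called, 2 lower and 1 higher, where 49.2% of all genes were called, 17% lower and 32.3% higher. Lrp2 fell with a log2 fold change of -0.88 (limma SE 0.21, adjusted p = 0.00151) and Cubn with -0.61 (SE 0.17, adjusted p = 0.00501), and 4.2% and 7.5% of all genes had a lower fold change. Dab2 rose by 0.41 (SE 0.10, adjusted p = 0.00238). After rescaling 2 genes were lower and 0 higher, where 25.5% and 25.3% of all genes were called lower and higher. Dab2 was then at 0.27 (limma adjusted p = 0.0772) and not called, and the authors' deposited table gives 0.29 with an adjusted p of 0.0559. Amn was at 0.07 and Clcn5 at -0.001, with adjusted p of 0.669 and 0.994 from limma, and neither was called after rescaling. Within UUO2, replicate 2 had the highest Lrp2 and Cubn and the lowest Dab2, and also the highest sum of proximal tubule markers, 22744 FPKM against 15288 to 17115 in the other libraries. That sum is weighted to the most abundant markers. In the same comparison 7 of 9 macrophage markers were higher and 1 lower, summed at 98.5 to 224.9 FPKM in UUO2, 5 of 9 fibroblast markers were higher, summed at 113.8 to 224.3, and 8 of 8 injured tubule markers were higher. Their part in the level of Dab2 was not tested.

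The second comparison asked what 7 days changed. All 5 genes were lower in UUO7 than in sham, where 77.9% of all genes were called and 17.8% were lower. Lrp2 had a log2 fold change of -2.36 (SE 0.21, adjusted p = 3.04e-09) and Cubn of -1.87 (SE 0.17, adjusted p = 3.99e-09), which placed them 93 and 218 from the most lowered of the 14785 genes. Falls of the other 3 were smaller: Dab2 had -0.53 (SE 0.10, adjusted p = 7.14e-05), Clcn5 -0.49 (SE 0.07, adjusted p = 1.83e-06) and Amn -0.38 (SE 0.12, adjusted p = 0.00689). Relative to the median gene every fall was larger, and after rescaling the 5 log2 fold changes were -2.83 for Lrp2, -2.33 for Cubn, -1.02 for Dab2, -0.94 for Clcn5 and -0.87 for Amn, all 5 called where 36.5% of genes were called lower. Lrp2 and Cubn have the longest transcripts of the set, and the 295 genes with a transcript of 10 kb or more had a median fold change of 0.28 in this comparison against 0.42 over all genes. From UUO2 to UUO7 all 5 genes also fell, where 14.7% of all genes were called lower, with log2 fold changes of -1.48 for Lrp2, -1.26 for Cubn, -0.94 for Dab2, -0.49 for Clcn5 and -0.45 for Amn. For Dab2 the limma adjusted p of that fall was 1.1e-07.

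**Figure D2:**
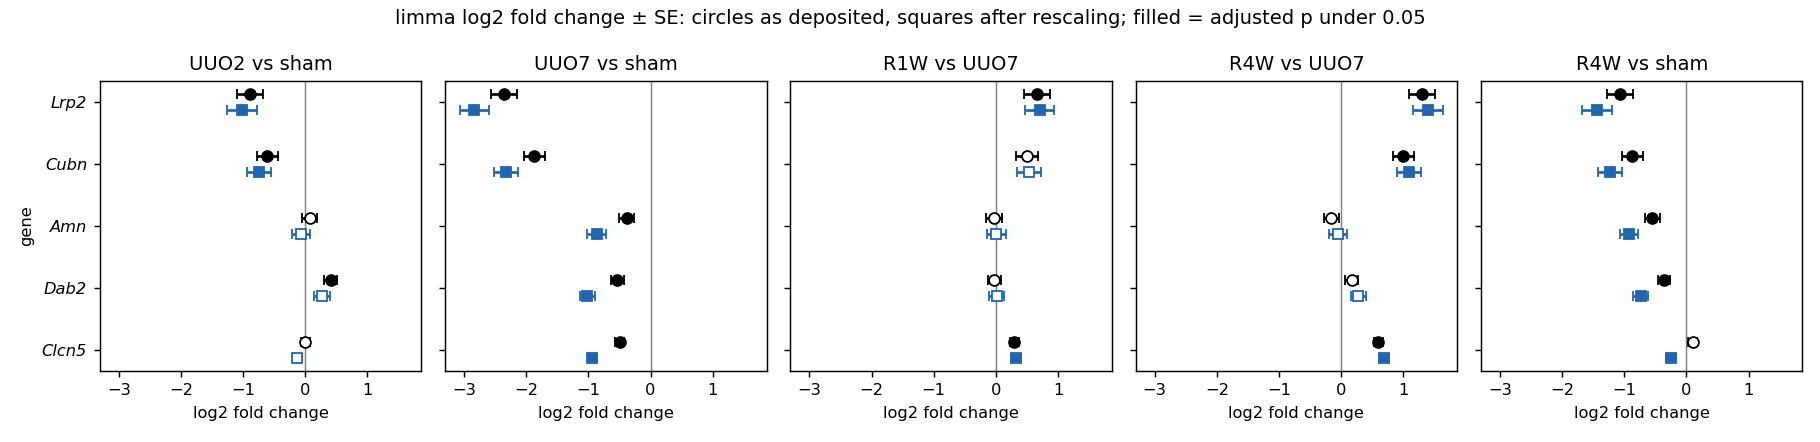
limma log2 fold change ± SE of each gene in 5 comparisons (horizontal axis, log2 scale), as deposited (circles) and after rescaling (squares), filled where the adjusted p was under 0.05. In UUO7 against sham Lrp2 at -2.36 and Cubn at -1.87 stand apart from the other 3, and in R4W against sham Clcn5 lies at 0.10 as deposited and at -0.24 after rescaling.

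The next comparisons asked what reversal restored. In R1W against UUO7, 2 of the 5 genes were higher and 0 lower, where 6.47% of all genes were called higher. Lrp2 rose by 0.67 (SE 0.21, adjusted p = 0.036) and Clcn5 by 0.30 (SE 0.07, adjusted p = 0.00859). Cubn was at 0.50 (SE 0.17, adjusted p = 0.051), just outside the threshold, although its R1W libraries were all above those of UUO7. It was called in 4 of the other settings, with limma adjusted p of 0.0469 at a pseudocount of 0.1, 0.04 among genes averaging 10 FPKM or more, 0.0462 fitted on the 2 groups and 0.0262 without UUO2, and without R1W replicate 2 or 3. The authors' deposited table gives Cubn 0.61 there, with an adjusted p of 0.00357. The call for Lrp2 depended on single libraries: leaving out R1W replicate 1 or 4 or UUO7 replicate 1, 3 or 4 ended it, with limma adjusted p up to 0.118. In R2W against UUO7 Lrp2 rose by 0.95, Cubn by 0.71 and Clcn5 by 0.35, 3 of 5 against 10.8% of all genes called higher. In R4W against UUO7 the same 3 rose, by 1.29, 1.00 and 0.60, where 17.6% of all genes were called higher. Amn was at -0.03, -0.07 and -0.16 in these 3 comparisons and Dab2 at -0.03, 0.03 and 0.17. Neither was called in any of them, and after rescaling Amn was at 0.01 in R1W, 0.02 in R2W and -0.05 in R4W.

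Recovery was incomplete against sham for the receptors and the adaptor. In R1W all 5 genes were lower than in sham, where 14.7% of all genes were called lower, although the call for Clcn5 (log2 fold change -0.19, adjusted p = 0.0174) reached an adjusted p of 0.0624 without R1W replicate 4. In R2W Lrp2, Cubn, Amn and Dab2 were lower, 4 of 5 against 12.9% of all genes, and Clcn5 was at -0.14 (limma adjusted p = 0.0735), called lower without R2W replicate 4 (adjusted p = 0.0274) or without sham replicate 4. In R4W the same 4 were lower, against 11.6% of all genes: Lrp2 by a log2 fold change of -1.06 (SE 0.21, adjusted p = 0.000177), Cubn of -0.87 (SE 0.17, adjusted p = 0.000165), Amn of -0.55 (SE 0.12, adjusted p = 0.000592) and Dab2 of -0.36 (SE 0.10, adjusted p = 0.00397). After rescaling these were -1.44 for Lrp2, -1.23 for Cubn, -0.92 for Amn and -0.74 for Dab2, all called, where 31.1% of genes were called lower. The authors' deposited table gives -1.47, -1.29, -0.98 and -0.65 for the same genes. Clcn5 was at 0.10 as deposited (SE 0.07, limma adjusted p = 0.2). Its direction depended on the scaling: after rescaling it was called lower at -0.24 (SE 0.08, adjusted p = 0.0102), where 31.1% of genes were called lower, and the authors' deposited table gives -0.25 with an adjusted p of 0.00126. In R2W, too, Clcn5 was called lower after rescaling, at -0.50 (limma adjusted p = 1.22e-05), where 32.5% of genes were called lower.

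Between neighbouring recovery times none of the 5 genes was called. In R2W against R1W 0 of the 5 genes were called by limma and 0 had an unadjusted p under 0.05, where 0.00676% of all genes were called. In R4W against R2W 0 were called and 1 had an unadjusted p under 0.05, Clcn5 with a log2 fold change of 0.25 (limma adjusted p = 0.358), where 0.0609% of all genes were called. The authors' deposited table also has 0 of the 5 at an adjusted p under 0.05 in both comparisons. Over the full span from R1W to R4W, 3 genes rose, against 5.06% of all genes called higher: Lrp2 by 0.62 (limma adjusted p = 0.042), Cubn by 0.50 (adjusted p = 0.0436) and Clcn5 by 0.30 (adjusted p = 0.00899). Placing R4W replicate 2 in R2W, as its treatment label says, left only Clcn5 called, with adjusted p of 0.0575 for Lrp2 and 0.0824 for Cubn. Leaving out any 1 of R4W replicates 2, 3 and 4 or R1W replicates 2, 3 and 4 likewise left 1 gene called, and leaving out R4W replicate 1 ended the call of Cubn (limma adjusted p = 0.0575). Fitted on these 2 groups alone none of the 3 was called by limma, with adjusted p of 0.0653 for Lrp2, 0.0759 for Cubn and 0.0626 for Clcn5. The authors' deposited table has all 3 at an adjusted p under 0.05, with 0.00498 for Lrp2, 0.0175 for Cubn and 9.49e-05 for Clcn5.

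Ratios between 2 genes within a library depend little on how libraries are scaled, so they test whether the genes changed unequally. Differences of log2(FPKM + 1) were compared for the 10 pairs in 4 comparisons by exact permutation tests (two-sided, 4 libraries against 4), whose smallest p is 0.0286, and 23 of the 40 reached it (adjusted p = 0.0497 over the 40). With R4W replicate 2 placed in R2W, 16 of the 40 had an exact p under 0.05 and 0 passed after adjustment (smallest adjusted p = 0.0714). In UUO7 against sham the ratio of Lrp2 to Cubn fell by 0.49 on the log2 scale, with no overlap between the groups (exact p = 0.0286). Lrp2 fell by 1.97 relative to Amn, by 1.825 relative to Dab2 and by 1.86 relative to Clcn5. Cubn fell by 1.49, 1.34 and 1.38 relative to the same genes, and all 7 of these ratios reached the smallest p. Among Amn, Dab2 and Clcn5 themselves the ratios were at 0.15 for Amn to Dab2, 0.11 for Amn to Clcn5 and -0.04 for Dab2 to Clcn5, with exact p of 0.343, 0.4 and 0.543.

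Cubn transcripts were thus fewer in UUO7 relative to those of the partner gene Amn. On the linear FPKM scale the Amn to Cubn ratio was 3.90, 4.32, 3.48 and 4.57 in the sham libraries and 12.7, 9.32, 16.3 and 12.3 in UUO7, with no overlap. The UUO2 ratio was 6.84 ± 2.02. It stood at 8.42 ± 1.87 in R1W, at 6.88 ± 0.896 in R2W and at 5.24 ± 0.870 in R4W, against 4.07 ± 0.478 in sham, and in R4W the log ratio of Cubn to Amn differed from sham by -0.32 with overlapping groups (exact p = 0.0857). The Lrp2 to Cubn ratio was 3.69 ± 0.156 in sham, 2.78 ± 0.180 in UUO7 and 3.29 ± 0.377 in R4W, and in R4W it overlapped with sham (exact p = 0.0857). The Dab2 to Lrp2 ratio was 1.03 ± 0.0790 in sham, 2.69 ± 0.888 in UUO2, 3.80 ± 0.455 in UUO7 and 1.69 ± 0.127 in R4W. It was above all sham libraries in every library of these 3 groups.

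**Figure D3:**
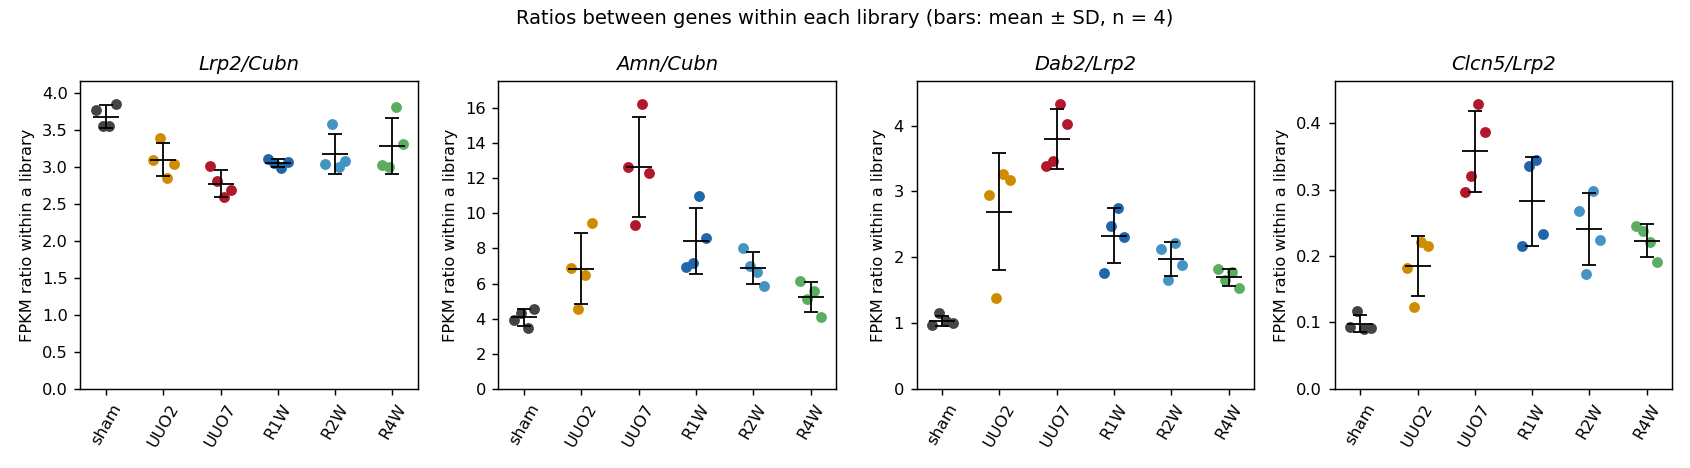
FPKM ratios between 2 genes within each library (vertical axes from 0) by group; points are libraries and bars are mean ± SD with n = 4. The Amn to Cubn ratio has a mean of 4.07 in sham, 12.6 in UUO7 and 5.24 in R4W, while the Lrp2 to Cubn ratio stays between means of 2.78 and 3.69.

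In UUO2 against sham 6 ratios reached the smallest p. Lrp2 fell relative to Cubn by 0.27, Amn by 0.95, Dab2 by 1.29 and Clcn5 by 0.88, and Cubn fell relative to Dab2 by 1.02 and Clcn5 by 0.61. In R1W against UUO7 Lrp2 rose relative to Dab2 by 0.695 and Cubn by 0.53, and Dab2 fell relative to Clcn5 by 0.33. In R4W against sham Clcn5 was high relative to all 4 others: the log ratio of Lrp2 to Clcn5 differed by -1.17, of Cubn to Clcn5 by -0.97, of Amn to Clcn5 by -0.65 and of Dab2 to Clcn5 by -0.47, each at the smallest exact p of 0.0286. Lrp2 also remained low relative to Amn, by -0.52, and to Dab2, by -0.70, and Cubn relative to Dab2, by -0.51.

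Whether each gene changed more or less than marker transcripts of the proximal tubule was compared by subtracting the mean log2(FPKM + 1) of the 18 proximal tubule markers within each library, in 20 exact tests of which 13 reached the smallest p (adjusted p = 0.044 over the 20). Lrp2 fell slightly more than the markers in UUO7 against sham, by 0.325 (exact p = 0.0286), and was still 0.24 below sham in R4W. For Cubn the differences from the markers were 0.16 in UUO7 (exact p = 0.143) and -0.05 in R4W (exact p = 0.6). Amn, Dab2 and Clcn5 fell much less than the markers, and relative to them stood 1.65, 1.5 and 1.54 higher in UUO7 than in sham, all at exact p = 0.0286. These bulk values do not show in which cells the 3 transcripts lay. At UUO2, where 14 of the 18 markers were called lower than in sham and 1 higher, Dab2 stood 1.41, Amn 1.07, Clcn5 1.00 and Cubn 0.39 higher relative to them than in sham, and Lrp2 0.12 higher (exact p = 0.429). From UUO7 to R1W, where 11 of the 18 markers were called higher and 0 lower, Amn and Dab2 each fell by 0.78 relative to the list. In R4W Amn was 0.28 above its sham position (exact p = 0.0857), Dab2 0.46 and Clcn5 0.93 (each exact p = 0.0286). With the median over the list in place of the mean, 10 of the 20 tests reached the smallest p and 0 passed after adjustment.

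**Figure D4:**
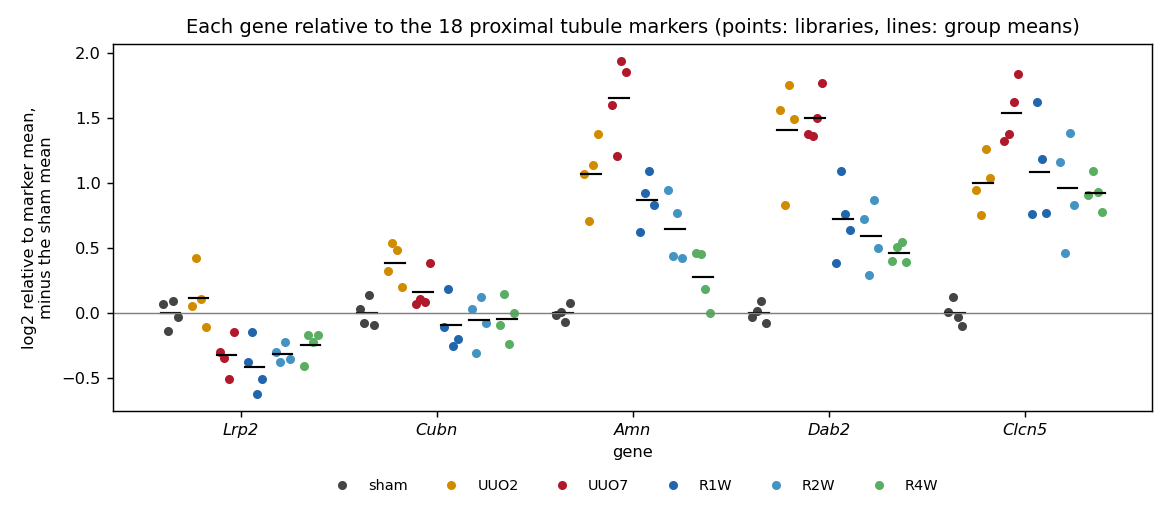
log2(FPKM + 1) of each gene minus the mean over the 18 proximal tubule markers, relative to the sham mean (vertical axis, log2 scale); points are libraries, lines group means, n = 4. Lrp2 and Cubn stay near the markers in UUO7, with means of -0.325 and 0.16, while Amn, Dab2 and Clcn5 stand 1.5 to 1.65 above them.

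Lrp2 and Cubn also moved together among animals of the same group. Over the 24 libraries their deviations from the group means on the log2 scale correlated with r = 0.954, while the other 9 pairs ranged from -0.36 for Amn and Clcn5 to 0.51 for Cubn and Clcn5. After rescaling the pair was at 0.965 and the others at 0.145 to 0.75. The libraries of a group share any depth or tissue difference between animals, so these values are descriptions. In R2W, for example, replicates 2 and 4 had the 2 highest levels of Lrp2, of Cubn, of Dab2 and of Amn.

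The genes whose pattern over the 24 libraries was most like each of the 5 were sought among the 7747 genes whose mean reached 10 FPKM. Lrp2 was closest to the potassium channel gene Kcnj15 (r = 0.992), to Xylb, which encodes xylulokinase (r = 0.992), and to Aco1, which encodes cytosolic aconitase (r = 0.986). The mean level of Kcnj15 was 158.6 FPKM in sham, 37.6 at UUO7 and 89.6 at R4W. Cubn was closest to Mfsd4b1 (r = 0.987), again Kcnj15 (r = 0.987) and Ankrd13c (r = 0.984). Amn was closest to the mitochondrial carrier gene Slc25a39 (r = 0.948), Tmem205 (r = 0.946) and Spr, which encodes sepiapterin reductase (r = 0.945). The means of Slc25a39 were 477.8 FPKM in sham, 323.1 at UUO7 and 336.1 at R4W. Among the genes closest to Dab2 were Igsf11 (r = 0.977) and Alpl, which encodes alkaline phosphatase (r = 0.952). Both had their highest mean at UUO2: Alpl stood at 95.7 FPKM in sham and 234.0 at UUO2, and Igsf11 at 19.9 and 32.5. Clcn5 had no gene as close, with Tgfbrap1 (r = 0.893), Rnf186 (r = 0.862) and Kif16b (r = 0.849) leading.

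The wider pathway was described by lists of which 95 of 100 genes had a row. Receptor partners and cargo handling came first, with 3 of 6 genes lower and 1 higher in UUO7 than in sham and a median log2 fold change of -0.51, where 17.8% of all genes were lower and 60.1% higher. Lrpap1, the chaperone that folds megalin in the endoplasmic reticulum, fell from 381 ± 21.8 FPKM to 169.5 ± 14.4 (log2 fold change -1.17, limma adjusted p = 1.76e-07) and stood at 254 ± 11.2 in R4W. Tcn2, the vitamin B12 carrier that megalin takes up, had the lowest fold change of this list, from 825 ± 60.7 to 179 ± 33.4 FPKM (-2.22), and Folr1, the folate receptor, fell from 434 ± 21.3 to 230 ± 16.2 FPKM (-0.91). Fcgrt, the receptor that recycles albumin and IgG, was at -0.10 (limma adjusted p = 0.211). Ctns, the lysosomal cystine exporter, was the highest of the list at 0.29 and called higher. Relative to the median gene Ctns was lower: after rescaling it was called lower at -0.16, and all 6 genes of the list were then called lower, against 36.5% of all genes.

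The coat and adaptor genes moved much as all genes did. Of 20, 13 were higher and 3 lower in UUO7 than in sham, near the shares of 60.1% and 17.8% over all genes, with a median of 0.53 against 0.42 over all genes; after rescaling 6 were higher and 8 lower with a median of 0.06. Ap2s1, a subunit of the clathrin adaptor AP2, had the highest fold change, 1.05 (limma adjusted p = 6.09e-08), from 101.2 ± 5.21 to 212 ± 25.7 FPKM. Myo6, the motor that moves endocytic vesicles inward from the microvilli, had the lowest, -0.63 (limma adjusted p = 1.14e-05), from 78.7 ± 3.00 to 50.6 ± 4.89 FPKM. Ocrl, the phosphatase mutated in Lowe syndrome and in some families with Dent disease, rose by 0.57 as deposited and was at 0.13 and not called after rescaling. Of 5 adaptor genes related to Dab2 or binding its protein, 3 were higher and 0 lower in UUO7, with Numbl highest at 2.12 and Numb lowest at -0.12 and not called. After rescaling 3 were higher and 2 lower, Numb among the latter.

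Against 60.1% of all genes higher and 17.8% lower, and 36.5% each way after rescaling, early endosome and recycling genes had 10 of 21 higher and 6 lower in UUO7, with a median of 0.07, and 1 higher and 16 lower after rescaling. Rab11fip3, an effector of the recycling GTPase Rab11, fell from 168 ± 11.1 to 75.4 ± 4.17 FPKM (-1.15, limma adjusted p = 2.43e-09), and Appl1, an early endosome adaptor, was highest at 0.59. Endosomal acidification and ion exchange had 9 of 20 higher and 7 lower with a median of -0.05, and 0 higher and 14 lower after rescaling. Slc9a3, the brush-border sodium/proton exchanger NHE3, fell from 32.4 ± 1.10 to 6.88 ± 1.35 FPKM (-2.10, limma adjusted p = 1.15e-08) and stood at 18.5 ± 2.24 in R4W. Its scaffold Slc9a3r1 fell by 0.62, and the proton pump subunit Atp6v0b was highest at 0.62 as deposited and was at 0.13 and not called after rescaling.

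Relatives of megalin moved in both directions. Of 11 LDL receptor family genes 3 were higher and 4 lower in UUO7 than in sham, and 2 higher and 7 lower after rescaling, where over all genes 60.1% were higher and 17.8% lower, and 36.5% each way after rescaling. Lrp1, a receptor of fibroblasts, macrophages and other cells, rose from 8.71 ± 4.07 to 81.9 ± 7.45 FPKM (3.17, limma adjusted p = 3.7e-10) and stood at 45.8 ± 7.93 in R4W. In sham the mean FPKM of Lrp1, a value per transcript length, was below that of Lrp2, and in UUO7 it was above it. Lrp4 had the lowest fold change at -0.87. The same macrophage and fibroblast markers given above moved with Lrp1, and their part in its level was not tested. Of 8 genes of the CLC family other than Clcn5, 3 were lower and 1 higher, and 7 lower and 0 higher after rescaling. Ostm1, the partner of ClC-7, was highest at 0.34, and not called after rescaling at -0.11. Clcn7 was at 0.03 and not called as deposited, and was called lower at -0.43 after rescaling.

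Hnf4a, a nuclear regulator of proximal tubule genes, fell from 182 ± 19.4 FPKM in sham to 63.0 ± 8.10 in UUO7 (-1.52, limma adjusted p = 4.28e-08). It stood at 99.9 ± 5.10 FPKM in R4W and was still called lower than in sham there, at -0.85.

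In R4W against sham 54.8% of all genes were called higher and 11.6% lower, and after rescaling 28.9% and 31.1%. Receptor partners had 3 of 6 lower and 1 higher, with Tcn2 at -0.84, Folr1 at -0.69 and Lrpap1 at -0.58, all called, and after rescaling 5 lower and 0 higher. Coat and adaptor genes had 13 of 20 higher and 1 lower as deposited, and 3 higher and 8 lower after rescaling. Early endosome genes had 4 of 21 higher and 4 lower, with Rab11fip3 at -0.87, and after rescaling 1 higher and 16 lower. Acidification genes had 3 of 20 higher and 5 lower, with Slc9a3 at -0.78 and Slc9a3r1 at -0.45, and after rescaling 0 higher and 15 lower. Lrp1 remained higher at 2.33 and Numbl at 1.58, and both were also called higher after rescaling.

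**Figure D5:**
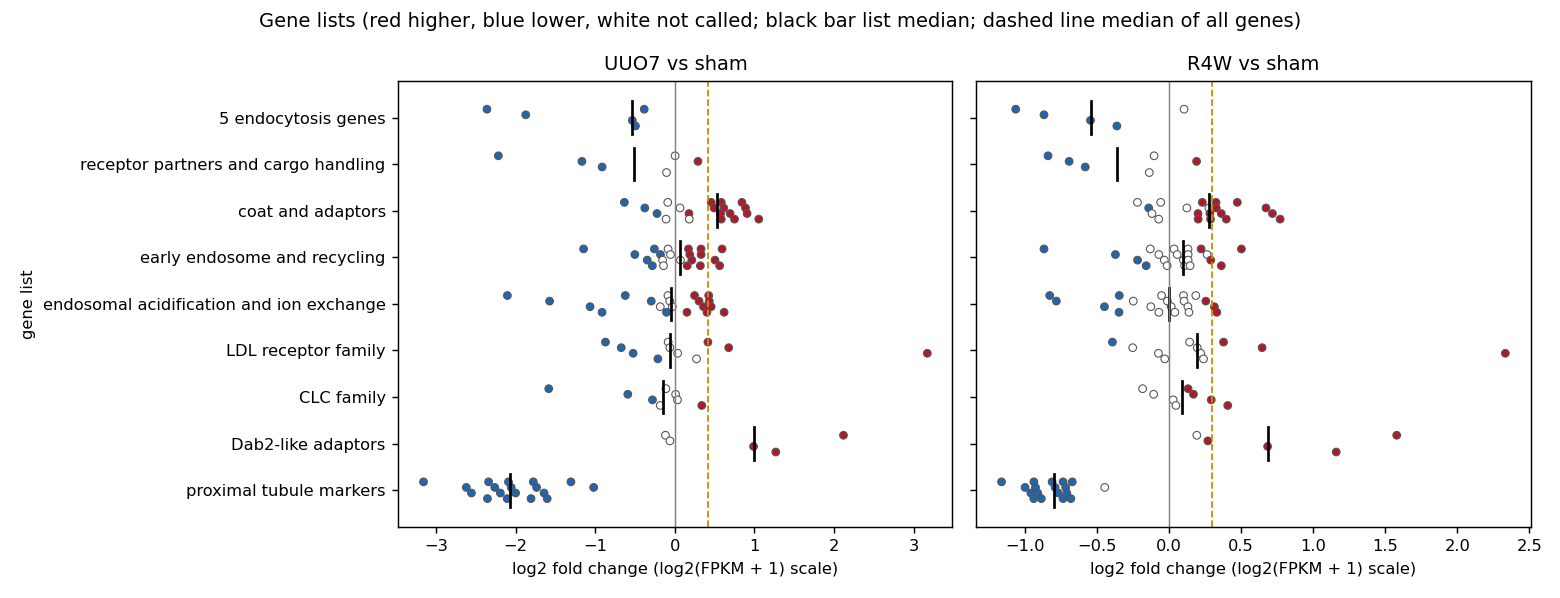
limma log2 fold change of each gene of the lists in UUO7 and R4W against sham (horizontal axes, log2 scale; red called higher, blue called lower, white not called), with the list median as a black bar and the median of all genes, 0.42 and 0.30, as a dashed line. The 5 endocytosis genes and the 6 receptor partner genes lie left of the dashed line in both panels, and the proximal tubule markers have medians of -2.07 and -0.80.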

How the data were processed

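RNA sequencing of 24 mouse kidneys was analysed from 1 table. The submitters' processing notes name FastQC, Bowtie2, RSEM, DESeq2 and mm10, with no roles or versions. The file headers do not name a unit. FPKM was inferred here, and the deposited FPKM cover genes with a mean of at least 1. The authors deposited log2 fold changes and adjusted p-values for their own comparisons, quoted where named.

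All 14785 genes were fitted on log2(FPKM + 1) by limma 3.58.1 under R 4.3.3, using lmFit and then a trended eBayes. This is a scale that understates changes of low genes. The fit used 24 libraries, 1 coefficient per group and Benjamini-Hochberg adjustment over all genes. Exact permutation tests used Python 3.11.15 and scipy 1.17.1. Tested on simulated data for UUO7 against sham, limma called 176 of 200 genes changed by 1 on the log2 scale and 10 of the unchanged among 14785. Replicates are separate animals numbered in the titles. The members and lists were chosen with earlier results of these data known. Named were the 5 genes, a fixed choice of pathway genes, the highest and lowest of each list in UUO7 against sham, and the 3 nearest patterns per gene; the genes compared at R4W come from these. Some genes that this rule names are not reported here. Alternatives were rescaling, pseudocounts of 0.1 or 10, only genes averaging 10 FPKM or more, other sets of libraries, a replicate block, R4W replicate 2 in R2W, an adjusted p under 0.01 and a log2 change of 1 or more in size.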

Additional observations from a re-analysis of the deposited data

Results flagged for a closer look

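Among 60 groups of 4 libraries checked for a library far from the other 3, 4 were found, where chance gives about 3. Amn in R1W replicate 2 was at 69.3 FPKM, below the other libraries at 99.27 to 104.37. Clcn5 in sham replicate 4 was at 9.89 FPKM, below the others at 11.11 to 11.33, and Clcn5 in R4W replicate 1 was at 10.74 FPKM, below the others at 12.07 to 12.22. Cubn relative to the proximal tubule markers was at -4.03 on the log2 scale in UUO7 replicate 4, above the others at -4.34 to -4.30.

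As deposited, Dab2 stood on opposite sides of sham at the 2 times of obstruction, with all 4 UUO2 libraries above and all 4 UUO7 libraries below. After rescaling the UUO2 libraries overlapped with sham and the difference was not called (0.27, limma adjusted p = 0.0772), and the authors' deposited table gives 0.29 with an adjusted p of 0.0559. The difference of UUO7 from UUO2 was -0.94 as deposited and -1.29 after rescaling on the log2 scale (limma adjusted p = 1.1e-07 and 3.97e-08). The UUO2 libraries also stood apart in depth steps and mt-Rnr1, which cannot be told apart from the group.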

How the results depend on the processing

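Of 565 alternative values of the 60 fold changes, apart from those that leave out 1 library, 545 kept direction and side of the threshold, 9 lost a call, 5 gained one and 6 reversed. The stricter adjusted p and the minimum log2 change reuse the main fit, so their values among the 565 are copies that could only count as kept. Calls lost under those rules are not among the 9 and are counted below. Rescaling gave the 6 reversals: Amn to -0.065 in UUO2 against sham, to 0.01 and 0.02 in R1W and R2W against UUO7 and to 0.01 in R2W against R1W, Dab2 to 0.013 in R1W against UUO7, and Clcn5 to -0.245 in R4W against sham; its construction moves the median gene. The cause of other changes was not tested.

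Counts of the 5 genes called changed as follows. Rescaling added Clcn5 in R2W and R4W against sham and ended the call of Dab2 in UUO2 against sham. A pseudocount of 10 ended that of Cubn in R4W against R1W (limma adjusted p = 0.0553). R1W against UUO7 rose from 2 to 3, with Cubn, at a pseudocount of 0.1, among genes averaging 10 FPKM or more, fitted on the 2 groups and without UUO2, and fell to 1 with a pseudocount of 10 and at an adjusted p under 0.01. R4W against R1W fell from 3 to 0 when fitted on these 2 groups, and to 1 with R4W replicate 2 in R2W and at an adjusted p under 0.01. Requiring a log2 change of 1 or more in size, the counts were 0 in UUO2 against sham, R1W and R2W against UUO7 and R4W against R1W, 2 in UUO7 against sham and UUO2 and in R1W and R2W against sham, and 1 in R4W against sham. Leaving out 1 library gave 1 to 3 in R1W against UUO7 and in R4W against R1W, and 4 to 5 in R1W and in R2W against sham, where Clcn5 in R2W reached an adjusted p of 0.0274. Small fold changes crossed 0 on leaving out 1 library: Clcn5 in UUO2 against sham (-0.043 to 0.048), Amn and Dab2 in R1W against UUO7 (-0.105 to 0.107 and -0.071 to 0.003), in R2W against UUO7 (-0.171 to 0.025 and -0.036 to 0.098) and in R2W against R1W (-0.181 to 0.054 and -0.011 to 0.123), and Amn in R4W against R2W (-0.187 to 0.009).

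The exact tests cannot pass with fewer libraries: 4 against 3 allows 0.0571, and the adjustment then takes the rest with it. The 23 ratio tests and 13 tests against the markers became 0 on leaving out any 1 library of the groups compared (range 0 to 0; R2W is in none of these tests) and with R4W replicate 2 in R2W, and the 13 became 0 with the list median. Among ratios that did not pass, Dab2 to Clcn5 in UUO7 against sham was 0.005 with a pseudocount of 0.1 and -0.077 to 0.001 without 1 library, Amn to Clcn5 -0.093 with a pseudocount of 10, and -0.019 to 0.136 in UUO2 without 1 library, Amn to Dab2 in R1W against UUO7 -0.103 to 0.104, and Cubn relative to the markers in R4W against sham 0.164 with a pseudocount of 10 and -0.111 to 0.018 without 1 library.

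Same-numbered libraries are different animals, and no comparison had r above 0.1 in all 4 pairs. With the replicate block limma called 5 genes in UUO7 against sham, as without it, and 2 in place of 3 in R4W against R1W, where Cubn had an adjusted p of 0.0518. Paired exact tests, which cannot go below 0.125, passed 0 ratios and 0 marker tests.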
